A study of Mus musculus with 24 samples.

Results

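The repressors of the mouse circadian clock were followed through the day in 2 neighbouring stretches of the distal kidney tubule. The 10 genes are the period genes Per1, Per2 and Per3, the cryptochromes Cry1 and Cry2, the repressor Ciart, the basic helix-loop-helix repressors Bhlhe40 and Bhlhe41, and the kinases Csnk1d and Csnk1e, chosen by name from the 18194 genes measured. All probe sets carrying 1 of these gene symbols were taken, 24 in all, and a gene with several is represented by the probe set that was brightest on average across the 24 arrays. Values are log2 microarray signals, so a difference of 1 is a doubling, and levels are compared only within a probe set.

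In the clock of mammalian cells, the transcription factors CLOCK and BMAL1 (the product of Arntl) switch on the Per and Cry genes through E-boxes in their promoters. The PER and CRY proteins then enter the nucleus together and block CLOCK and BMAL1, which closes a loop of about a day. Ciart and the Bhlhe40 and Bhlhe41 proteins also oppose CLOCK and BMAL1, and the casein kinases encoded by Csnk1d and Csnk1e phosphorylate the PER proteins and so set how long they last. The distal nephron, where sodium, potassium and water excretion are adjusted, has a clock of this kind.

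The tissue was dissected by hand from collagenase-treated left kidneys of male C57BL/6J mice, with no transgene, mutation or drug in any group, under 12 h of light and 12 h of darkness. The DCT/CNT samples hold distal convoluted and connecting tubules, and the CCD samples hold cortical collecting ducts. Both were collected at 6 zeitgeber times (ZT, hours after lights on), in steps of 4 h from ZT0 to ZT20, with lights off at ZT12. This gives 12 groups, DCT/CNT and CCD at each time, with 2 pools in each. There were 5 animals per time, and each array was made from 10 ng of total RNA. Ages, and whether pools or segments share animals, are not given in the sources used here. The p-values therefore rest on the spread between pools, not between animals. For the fitted curves they also rest on how far group means depart from the curve.

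The segment labels held up against marker genes. Slc12a3, the sodium chloride cotransporter of the distal convoluted tubule, averaged 10.77 in DCT/CNT and 5.28 in CCD, and Aqp2, the water channel of principal cells, averaged 7.95 and 10.25. Of 10 measured DCT and CNT markers, 9 were higher in DCT/CNT and 1, Stk39, was higher in CCD (10.75 and 11.46). All 9 principal cell markers were higher in CCD, though Hsd11b2 only by a DCT/CNT minus CCD difference of -0.09, less than the median gene (-0.13). Of all genes, 30.4% were higher in DCT/CNT and 47.0% in CCD at adjusted p under 0.05 (limma). The separation was partial, since Calb1 (12.56 and 11.81) and S100g (13.40 and 11.91) stayed high in CCD. Markers of neighbouring tubules were also present and moved between pools. The mean of 14 measured proximal tubule markers of 15 listed lay between 7.45 and 9.00 in DCT/CNT and between 7.36 and 8.90 in CCD, and in DCT/CNT both ZT12 pools (8.91 and 9.00) were the highest. The mean of the 7 thick ascending limb markers lay between 7.94 and 9.37 in DCT/CNT and between 7.04 and 9.05 in CCD. The 7 include Kcnj1, which is also listed as a principal cell marker and averaged 12.41 in DCT/CNT and 12.69 in CCD. Kcnj1 itself followed a 24 h curve in DCT/CNT (adjusted p = 0.00757, limma), so this mean does not stand for neighbouring tubules alone. Of the 14 proximal tubule markers, Pck1 also followed such a curve in DCT/CNT (adjusted p = 0.0321, limma), so that mean too holds a rhythmic gene. Fits that held both marker means constant are given below beside the rhythmic genes. In dissected tubules, fewer cells of a type and less RNA per cell cannot be told apart. Within groups, the pools correlated at 0.988 to 0.995 over all genes, and the interquartile range of the deposited values was 3.32 to 3.65 in DCT/CNT and 4.08 to 4.28 in CCD.

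A 24 h cosine curve was fitted to each gene in both segments. A gene was called rhythmic when its Benjamini-Hochberg adjusted p from limma's moderated F test was under 0.05. All 5 Per and Cry genes and Ciart were called in both segments, and Bhlhe40, Bhlhe41, Csnk1d and Csnk1e in neither. That is 6 of 10 genes in each segment, against 6.57% of all genes in DCT/CNT and 2.47% in CCD, and 1.30% of all genes were called in both. Amplitudes below are from the mean to the peak on the log2 scale, with the standard error of the fit, and folds are from trough to peak of the fitted curve.

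**Figure D1:**
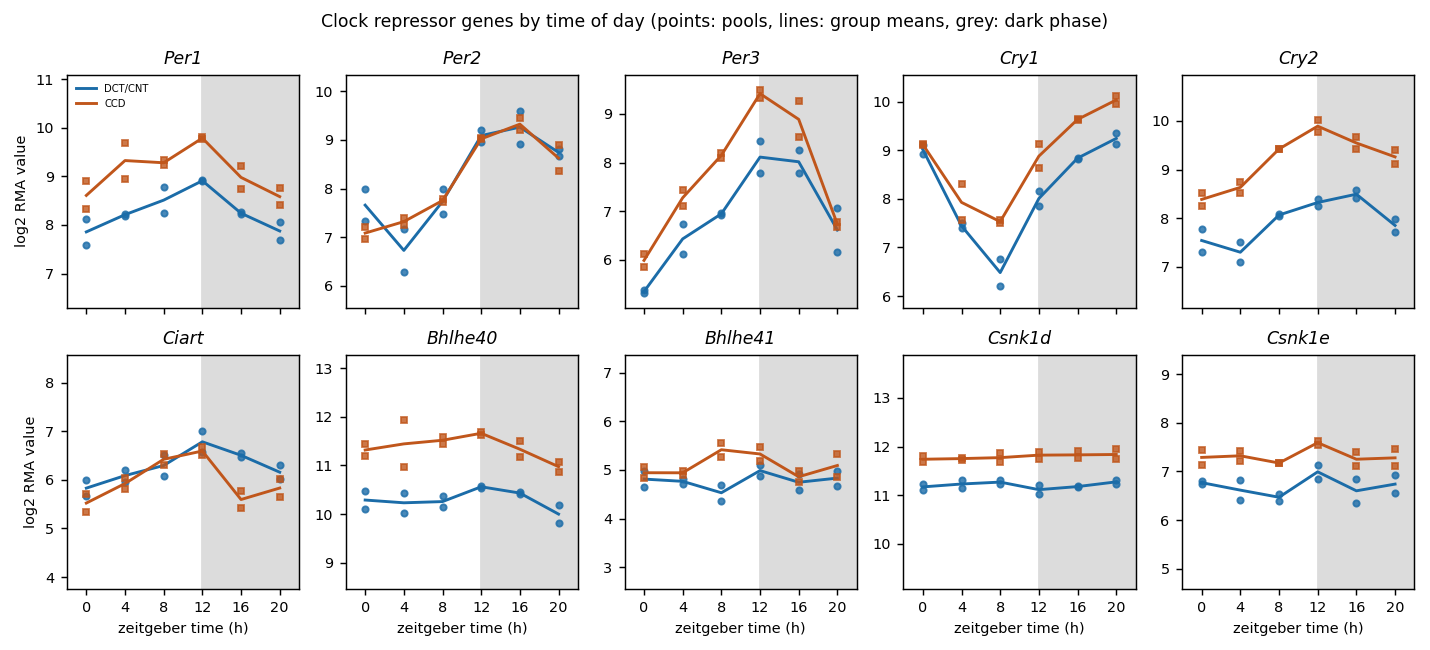
Log2 RMA value (vertical axis) against zeitgeber time in hours (horizontal axis) for the 10 genes, with 1 point per pool, lines through the group means and the dark phase in grey (DCT/CNT blue circles, CCD orange squares). All panels span the same number of log2 units: Per2, Per3 and Cry1 sweep through more than 2 units in each segment, while Csnk1d stays between 11.02 and 11.32 in DCT/CNT and between 11.68 and 11.94 in CCD.

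Per1, the period gene that also answers to acute signals such as glucocorticoids, was highest at lights off in both segments. The group mean rose at each step from ZT0 to ZT12 in DCT/CNT, and in CCD from ZT0 to ZT4 and from ZT8 to ZT12, with a change of -0.05 between. Its RefSeq promoter window holds an E-box, and is shown because this element is the binding site of CLOCK and BMAL1. The stretch lies upstream of the start site at chr11:69098763-69098808 (GRCm38.p6, plus strand), from 186 to 141 bases before it, with the E-box CACGTG in capitals.
Per1: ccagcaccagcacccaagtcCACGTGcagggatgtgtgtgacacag
An E-box occurred in 7.15% of the 32851 promoter windows of the same length (250 bases before to 50 after the start, both strands), and a second Per1 window held no searched motif.

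In DCT/CNT, the 2 pools of Per1 measured 7.59 and 8.13 at ZT0, 8.23 and 8.19 at ZT4, 8.78 and 8.24 at ZT8, 8.92 and 8.90 at ZT12, 8.26 and 8.22 at ZT16, and 7.69 and 8.06 at ZT20. In CCD they measured 8.32 and 8.89 at ZT0, 8.95 and 9.69 at ZT4, 9.33 and 9.22 at ZT8, 9.77 and 9.80 at ZT12, 8.73 and 9.22 at ZT16, and 8.41 and 8.76 at ZT20. In each segment both ZT12 pools lay above every other pool, the ZT0 and ZT20 pools were the lowest by mean, and CCD lay above DCT/CNT at every time without overlap. The group mean fell by 0.67 in DCT/CNT and by 0.81 in CCD over the 4 h after lights off, the largest step of the day in each.

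The fitted Per1 amplitude was 0.49 (SE 0.11) in DCT/CNT and 0.54 (SE 0.11) in CCD, a 1.98-fold and a 2.12-fold swing. Adjusted p was 0.0261 and 0.0259 (limma), and the peaks fell at ZT 10.6 ± 0.867 and ZT 9.75 ± 0.789 (SE). These calls rest on few pools. In DCT/CNT the call was lost without ZT0 pool 1, either ZT12 pool or ZT20 pool 1 (adjusted p up to 0.0724), and in CCD without the CCD pools of the same times and numbers (up to 0.0787). Without ZT12 adjusted p was 0.190 and 0.239, and without ZT0, ZT16 or ZT20 the call was lost too. With no curve assumed, an F test over the 6 group means gave adjusted p of 0.130 and 0.155. With the proximal tubule and thick ascending limb means held constant, Per1 kept amplitudes of 0.51 and 0.59 (adjusted p = 0.0349 and 0.0294).

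Per2, the period gene whose loss shortens and then stops the daily rhythm of behaviour of mice in constant darkness, was low in the light and high in the dark. No promoter window of Per2 was in the sequence table. In DCT/CNT the pools measured 7.34 and 7.98 at ZT0, 6.29 and 7.17 at ZT4, 7.48 and 7.99 at ZT8, 9.21 and 8.97 at ZT12, 9.60 and 8.92 at ZT16, and 8.82 and 8.67 at ZT20. In CCD they measured 6.97 and 7.20 at ZT0, 7.24 and 7.40 at ZT4, 7.72 and 7.79 at ZT8, 9.01 and 9.03 at ZT12, 9.21 and 9.44 at ZT16, and 8.36 and 8.89 at ZT20. All pools of ZT12 to ZT20 lay above all pools of ZT0 to ZT8 in both segments. The steepest rise was between ZT8 and ZT12, by 1.35 in DCT/CNT and 1.27 in CCD.

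Per2 had an amplitude of 1.26 (SE 0.12) in DCT/CNT and 1.18 (SE 0.12) in CCD, with 5.71-fold and 5.11-fold swings. The peaks fell at ZT 15.6 ± 0.376 and ZT 15.0 ± 0.402, and adjusted p was 1.11e-05 and 2.27e-05 (limma). The low point differed between the segments by group mean. DCT/CNT was lowest at ZT4 (6.73 ± 0.63, SD, n = 2) and CCD at ZT0 (7.09 ± 0.16, SD, n = 2), and the DCT/CNT minus CCD difference went from 0.57 at ZT0 to -0.59 at ZT4.

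Per3, the third period gene and a common readout of clock phase in peripheral tissues, had the highest amplitude of the 10 genes in CCD by its brightest probe set, though not with its 6 probe sets averaged. Its promoter window held no E-box but a pair of D-boxes, the sites bound by DBP, TEF, HLF and NFIL3, and is shown for that reason. The stretch lies from 225 to 131 bases before the start at chr4:151044796-151044890 (GRCm38.p6, minus strand), with both D-boxes, TTATGTAA, in capitals.
Per3: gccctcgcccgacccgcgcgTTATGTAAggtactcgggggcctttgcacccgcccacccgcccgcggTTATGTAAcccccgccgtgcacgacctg
A D-box occurred in 0.938% of the 32851 windows, and 2 or more in 7 windows (0.0213%).

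In DCT/CNT, Per3 measured 5.37 and 5.32 at ZT0, 6.75 and 6.11 at ZT4, 6.97 and 6.92 at ZT8, 7.79 and 8.43 at ZT12, 8.25 and 7.77 at ZT16, and 6.15 and 7.07 at ZT20. In CCD it measured 5.85 and 6.13 at ZT0, 7.11 and 7.44 at ZT4, 8.10 and 8.19 at ZT8, 9.33 and 9.50 at ZT12, 8.52 and 9.25 at ZT16, and 6.68 and 6.78 at ZT20. In both segments the ZT12 and ZT16 pools lay above all others and the ZT0 pools below all others. Between ZT16 and ZT20 the group mean fell by 1.40 in DCT/CNT and fell by 2.16 in CCD.

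The Per3 amplitude was 1.29 (SE 0.16) in DCT/CNT and 1.65 (SE 0.16) in CCD, which are 6.01-fold and 9.83-fold swings. The peaks fell at ZT 13.1 ± 0.462 and ZT 12.1 ± 0.362, and adjusted p was 0.00014 and 5.33e-06 (limma). Among all 18194 genes, Per3 ranked 10 by amplitude in DCT/CNT and 6 in CCD. These values belong to the brightest probe set. With all 6 probe sets averaged, the amplitude was 0.63 in DCT/CNT and 0.96 in CCD, below that of Cry1 (1.32 and 1.23), and Per3 was still called (adjusted p = 0.000343 and 1.07e-06).

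Cry1, the cryptochrome that holds CLOCK and BMAL1 silent late in the cycle, was the last of the repressors to peak. Its promoter window held an E-box and, a few bases upstream, a variant E-box (CACGTT, read here on the opposite strand as AACGTG). The stretch lies from 99 to 35 bases before the start at chr10:85185089-85185153 (GRCm38.p6, minus strand), with both in capitals. The stretch of Cry2, the second cryptochrome, is set beside it because it held the variant alone, from 186 to 141 bases before the start at chr2:92434210-92434255 (minus strand).
Cry1: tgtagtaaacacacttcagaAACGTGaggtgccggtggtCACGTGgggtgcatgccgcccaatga
Cry2: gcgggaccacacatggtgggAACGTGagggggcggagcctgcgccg
The variant occurred in 4.68% of the 32851 windows.

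In DCT/CNT, Cry1 measured 8.92 and 9.11 at ZT0, 7.39 and 7.50 at ZT4, 6.20 and 6.76 at ZT8, 8.16 and 7.85 at ZT12, 8.82 and 8.85 at ZT16, and 9.35 and 9.13 at ZT20. In CCD it measured 9.10 and 9.13 at ZT0, 7.56 and 8.30 at ZT4, 7.49 and 7.57 at ZT8, 8.63 and 9.12 at ZT12, 9.65 and 9.61 at ZT16, and 10.11 and 9.96 at ZT20. The ZT20 pools were the highest in both segments. The ZT8 pools lay below all others in DCT/CNT and overlapped the ZT4 pools in CCD. From ZT20 to ZT0 the group mean dropped by 0.23 in DCT/CNT and by 0.92 in CCD.

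Cry1 had an amplitude of 1.32 (SE 0.12) in DCT/CNT and 1.23 (SE 0.12) in CCD, with 6.27-fold and 5.52-fold swings. Its peaks fell at ZT 19.7 ± 0.348 and ZT 18.7 ± 0.374, and adjusted p was 3.18e-06 and 8.54e-06 (limma). By amplitude it ranked 8 of all genes in DCT/CNT and 11 in CCD, and Per2 ranked 12 in each.

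Cry2 swung less and earlier than Cry1. In DCT/CNT it measured 7.31 and 7.77 at ZT0, 7.50 and 7.10 at ZT4, 8.05 and 8.08 at ZT8, 8.40 and 8.25 at ZT12, 8.57 and 8.41 at ZT16, and 7.73 and 7.98 at ZT20. In CCD it measured 8.51 and 8.26 at ZT0, 8.52 and 8.75 at ZT4, 9.42 and 9.43 at ZT8, 9.78 and 10.01 at ZT12, 9.42 and 9.67 at ZT16, and 9.12 and 9.41 at ZT20. The ZT0 and ZT4 pools lay below those of ZT8 to ZT20 in CCD, whereas in DCT/CNT they overlapped the ZT20 pools. CCD lay above DCT/CNT at each time without overlap.

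The Cry2 amplitude was 0.57 (SE 0.08) in DCT/CNT and 0.71 (SE 0.08) in CCD, 2.20-fold and 2.69-fold swings. The peaks fell at ZT 14.0 ± 0.541 and ZT 13.2 ± 0.431, with adjusted p of 0.000646 and 6.45e-05 (limma). In the F test over group means, Per2, Per3, Cry1 and Cry2 were the 4 of 10 genes called in each segment, against 2.47% of all genes in DCT/CNT and 0.643% in CCD. With both neighbouring-tubule marker means held constant, Per2, Per3, Cry1 and Cry2 had amplitudes of 1.32, 1.37, 1.30 and 0.59 in DCT/CNT and 1.24, 1.75, 1.21 and 0.74 in CCD, all called (adjusted p up to 0.00724).

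Ciart, a repressor that binds CLOCK and BMAL1 and damps their activity, had the smallest called amplitude and the widest gap in fitted peak time between the segments. Its promoter window held 3 E-boxes and is shown for that number. The stretch lies from 136 to 19 bases before the start at chr3:95882247-95882364 (GRCm38.p6, minus strand), with the E-boxes in capitals.
Ciart: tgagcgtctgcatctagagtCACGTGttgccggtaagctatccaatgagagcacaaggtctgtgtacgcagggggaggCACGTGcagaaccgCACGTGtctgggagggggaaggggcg
Of the 32851 windows, 29 (0.0883%) held 3 or more E-boxes.

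In DCT/CNT, Ciart measured 6.00 and 5.66 at ZT0, 6.21 and 5.97 at ZT4, 6.09 and 6.50 at ZT8, 7.00 and 6.57 at ZT12, 6.55 and 6.46 at ZT16, and 6.30 and 6.01 at ZT20. In CCD it measured 5.33 and 5.71 at ZT0, 6.05 and 5.80 at ZT4, 6.53 and 6.31 at ZT8, 6.51 and 6.67 at ZT12, 5.42 and 5.77 at ZT16, and 6.02 and 5.64 at ZT20. The group mean was highest at ZT12 in both segments (6.78 in DCT/CNT and 6.59 in CCD), unlike the fitted peaks given below. The 2 segments ran together from ZT4 to ZT12. At ZT16 CCD was back near its ZT0 level while DCT/CNT stayed high, with a difference of 0.91 and no overlap of pools.

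The Ciart amplitude was 0.42 (SE 0.10) in DCT/CNT and 0.48 (SE 0.10) in CCD, with peaks at ZT 12.7 ± 0.905 and ZT 9.76 ± 0.787. The swings were 1.78-fold and 1.95-fold, with adjusted p of 0.0329 and 0.0257 (limma). The calls rest on few pools. In DCT/CNT the call was lost without pool 2 of ZT0, ZT4, ZT8 or ZT16 or either pool of ZT12 (adjusted p up to 0.104), and in CCD without ZT0 pool 1 or any pool of ZT8 or ZT12 (up to 0.0806). Without ZT12 adjusted p was 0.182 and 0.224, and it was lost in both segments without ZT0, ZT4 or ZT8 too. With both neighbouring-tubule marker means held constant, adjusted p was 0.105 in DCT/CNT and 0.0511 in CCD, at amplitudes of 0.40 and 0.49.

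**Figure D2:**
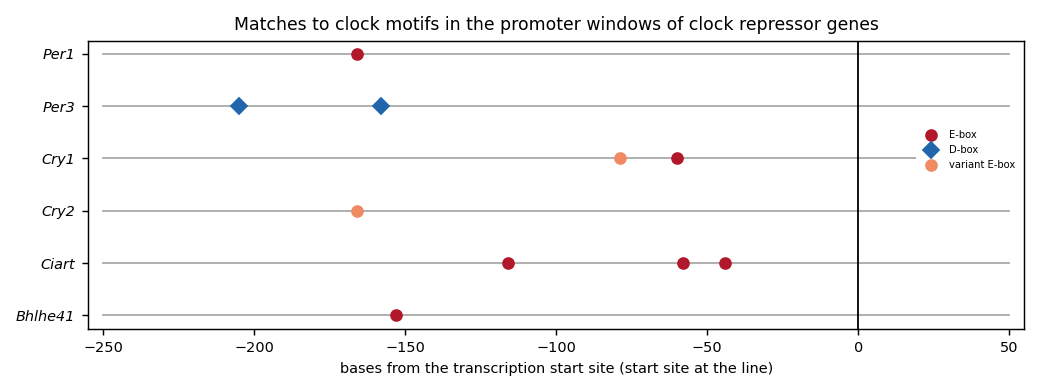
Matches to the searched motifs along the RefSeq promoter windows (horizontal axis, bases from the transcription start site at 0) of the 6 genes with a match, 1 row per gene, with E-boxes as red circles, variant E-boxes as orange circles and D-boxes as blue diamonds. All matches lie upstream of the start, between 44 bases (Ciart) and 205 bases (Per3) before it.

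Bhlhe40 and Bhlhe41, also called Dec1 and Dec2, compete with CLOCK and BMAL1 for E-boxes. The window of Bhlhe41 held an E-box itself, in the stretch from 173 to 128 bases before the start at chr6:145865548-145865593 (GRCm38.p6, minus strand), shown to set it beside those of the rhythmic genes.
Bhlhe41: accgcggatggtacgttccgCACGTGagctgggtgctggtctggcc
Neither the core of the ROR element (TAGGTCA, in 2.61% of windows) nor the cAMP response element (TGACGTCA, in 1.79%) matched any of the 11 windows of the 7 genes that had them. The 4 windows of Csnk1e held no searched motif, and Bhlhe40 and Csnk1d had no window in the table.

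In DCT/CNT, Bhlhe40 measured 10.10 and 10.48 at ZT0, 10.03 and 10.43 at ZT4, 10.36 and 10.15 at ZT8, 10.54 and 10.58 at ZT12, 10.45 and 10.41 at ZT16, and 9.81 and 10.19 at ZT20. In CCD it measured 11.20 and 11.44 at ZT0, 10.96 and 11.92 at ZT4, 11.59 and 11.44 at ZT8, 11.63 and 11.69 at ZT12, 11.17 and 11.49 at ZT16, and 11.08 and 10.87 at ZT20. By mean, ZT12 was highest and ZT20 lowest in both segments, but the ZT4 pools of CCD alone spanned nearly the whole range. The amplitude was 0.17 (SE 0.10) in DCT/CNT and 0.27 (SE 0.10) in CCD, with adjusted p of 0.474 and 0.330. Bhlhe41 ranged from 4.37 to 5.09 in DCT/CNT and from 4.75 to 5.56 in CCD, with amplitudes of 0.08 (SE 0.09) and 0.21 (SE 0.09) and adjusted p of 0.798 and 0.464.

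The array values of Csnk1d spanned the narrowest range of the 10 genes in each segment. They ranged from 11.02 to 11.32 over the 12 arrays of DCT/CNT and from 11.68 to 11.94 in CCD. Its amplitudes were 0.03 and 0.05 (SE 0.04), so for this brightest probe set a swing as large as that of Per1 lay far outside the error of the fit. A dimmer Csnk1d probe set, described below, had an amplitude of 0.22 in DCT/CNT. Csnk1e ranged from 6.36 to 7.14 in DCT/CNT and from 7.10 to 7.63 in CCD, with amplitudes of 0.08 and 0.07 (SE 0.09). Adjusted p for the brightest probe set of both kinases was 0.817 or higher in both segments.

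The fitted peaks of the 6 called genes had the same order in both segments, with Per1 and Ciart nearly level in CCD. In DCT/CNT the order of fitted peaks was Per1, Ciart, Per3, Cry2, Per2 and Cry1. Per1 preceded Ciart by 2.12 ± 1.45 h (SE), Ciart preceded Per3 by 0.340 ± 1.03 h, and Per3 preceded Cry2 by 0.899 ± 0.717 h. These neighbours lay within 2 standard errors of each other. Cry2 preceded Per2 by 1.65 ± 0.625 h and Per2 preceded Cry1 by 4.05 ± 0.458 h, both more than 2 standard errors.

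In CCD, the fitted peaks of Per1 and Ciart fell together (0.0118 ± 1.01 h apart) and that of Per3 followed Ciart by 2.37 ± 0.933 h. Per3 then preceded Cry2 by 1.05 ± 0.611 h, which is within 2 standard errors. Cry2 preceded Per2 by 1.81 ± 0.470 h and Per2 preceded Cry1 by 3.67 ± 0.535 h. Cry1 was thus set apart from the other repressors by the longest interval in both segments. Arntl, which encodes BMAL1, peaked at ZT 0.871 in DCT/CNT and at ZT 0.200 in CCD. Counted from that peak, Per1 came 9.75 h and 9.55 h later, Per2 14.8 h later in both, and Cry1 18.8 h and 18.5 h later.

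**Figure D3:**
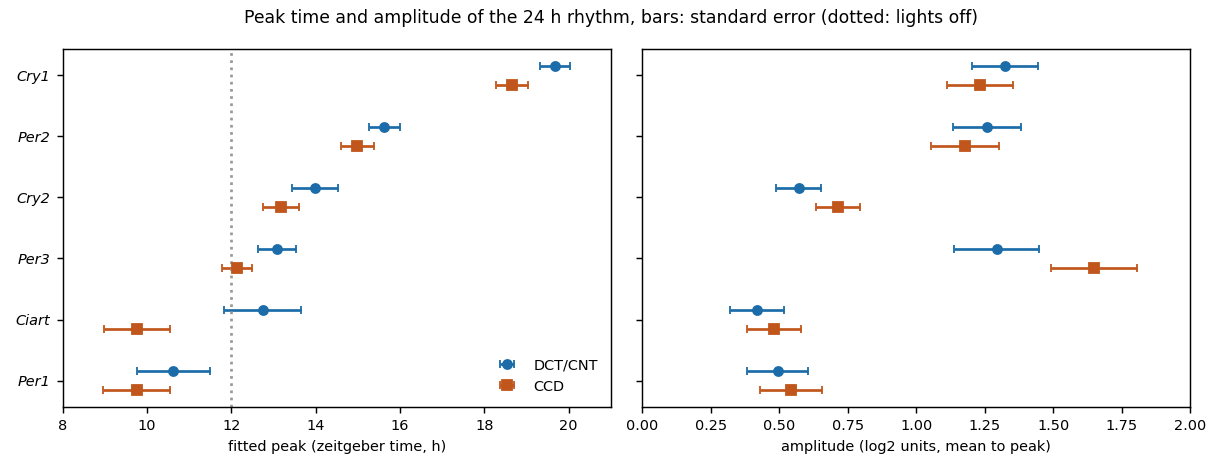
Fitted peak time (left, zeitgeber time in hours) and amplitude (right, log2 units from mean to peak) of the 6 rhythmic genes in DCT/CNT (blue circles) and CCD (orange squares), with bars for the standard error of the fit and a dotted line at lights off. The peaks run from ZT 9.75 for Per1 in CCD to ZT 19.7 for Cry1 in DCT/CNT, and each gene's blue circle lies to the right of its orange square.

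Whether a gene follows the day differently in the segments was tested on the difference of the fitted curves. None of the 10 genes was called, against 2 of all genes (0.0110%), while 1617 genes had an unadjusted p under 0.05 in limma. The smallest values among the 10 were unadjusted p = 0.0681 for Ciart (adjusted 0.593), 0.0947 for Per3 (0.628) and 0.146 for Cry1 (0.678). The Per3 amplitude was smaller in DCT/CNT by 0.36 (difference -0.36, SE 0.22), while Per1 differed by -0.05 (SE 0.16) and Per2 by 0.08 (SE 0.17). These intervals do not show that the segments swing alike.

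All 6 fitted peaks were later in DCT/CNT than in CCD. The gap was 0.865 h (SE 1.17) for Per1, 0.640 h (SE 0.550) for Per2, 0.951 h (SE 0.587) for Per3, 1.02 h (SE 0.511) for Cry1, 0.804 h (SE 0.691) for Cry2 and 2.98 h (SE 1.20) for Ciart. The median gap was 0.908 h. The 237 genes called in both segments had a median gap of 0.422 h, and 146 of them (61.6%) peaked later in DCT/CNT. Of the 45 with an amplitude over 0.5 in both segments, 34 (75.6%) did, with a median gap of 0.640 h. The 8 activator, receptor and PAR bZIP genes called in both segments all peaked later in DCT/CNT too, with a median gap of 0.529 h, so the later peak was shared with these clock genes. The size of the gap depended on single times. The Ciart gap was 1.38 h without ZT16 and 3.91 h without ZT12, the Cry2 gap 0.260 h without ZT16 and 1.87 h without ZT20, the Cry1 gap 0.608 h without ZT0 and the Per3 gap 0.599 h without ZT20. For these 4 genes it stayed above 0 in all fits run, and the lowest value was -0.0164 h for Per1 (without CCD ZT4 pool 2) and -0.109 h for Per2 (without ZT0).

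Differences in level between segments were called more often than differences in rhythm, among all genes (0.0110% for rhythm) as among these 10. Averaged over the day, 8 of 10 genes were higher in CCD, where 47.0% of all genes were called higher, and Ciart was higher in DCT/CNT, where 30.4% were. Per2 was not called. The median gene was itself lower in DCT/CNT (-0.13), and how the segments were normalised against each other is not given in the sources used here, so each difference is also given relative to that gene.

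Cry2 had the largest difference, at -1.26 (SE 0.07, DCT/CNT minus CCD) and -1.14 relative to the median gene, with adjusted p = 4.22e-10 (limma). Bhlhe40 followed at -1.08 (SE 0.10, relative -0.95, adjusted p = 7.94e-08). Its highest DCT/CNT array (10.58) lay below its lowest CCD array (10.87). Per1 and Per3 differed by -0.83 each (SE 0.11 and 0.12, relative -0.70 and -0.71), and Cry1 by -0.68 (SE 0.09, relative -0.56). All 8 genes were higher in CCD by group mean at each of the 6 times.

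The kinases Csnk1d and Csnk1e differed by -0.59 (SE 0.05, relative -0.46) and -0.62 (SE 0.08, relative -0.49), with adjusted p of 9.98e-09 and 3.74e-06 (limma). The 12 DCT/CNT arrays of Csnk1d all lay below the 12 CCD arrays, while those of Csnk1e overlapped at 7.10 to 7.14. Bhlhe41 differed by -0.32 (SE 0.08, relative -0.19), most at ZT8 (-0.88). Ciart was higher in DCT/CNT by 0.29 (SE 0.08, relative 0.42, adjusted p = 0.00511) and at 5 of 6 times. Without ZT16 the Ciart difference was 0.17 and no longer called (adjusted p = 0.117).

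Per2 showed no net difference (0.01, SE 0.12, adjusted p = 0.916) and was higher in DCT/CNT at 3 of 6 times. This result depended on the scale. After quantile normalisation over all arrays Per2 was higher in DCT/CNT by 0.41 (adjusted p = 0.00648) and after cyclic loess by 0.45 (adjusted p = 0.00291). When its 3 probe sets were averaged it was lower by 0.27 (difference -0.27, adjusted p = 0.00103). The same scalings shrank the other differences: for Cry1 to -0.28 and -0.22, for Per1 to -0.38 and -0.35, for Cry2 to -0.83 and -0.79, for Per3 to -0.57 and -0.55, for Csnk1e to -0.38 and -0.41, for Csnk1d to -0.22 in both and for Bhlhe40 to -0.67 in both. All these stayed called and kept their direction, and Bhlhe41 grew to -0.60 and -0.59. With arrays brought to equal medians, Bhlhe41 was at -0.11 and not called (adjusted p = 0.185), Csnk1d was at -0.38, Csnk1e at -0.41 and Ciart at 0.50. With probe sets averaged, Per3 was at -0.46 and Bhlhe41 at -0.17, both still called. Single probe sets of a gene disagreed. The second Per2 probe set by brightness was at -0.61 (adjusted p = 0.000299, limma over all probe sets) and the third at -0.23 (0.0887). The 6 Per3 probe sets ran from -0.86 to -0.03, and 2 of them were not called (-0.03 and -0.14). The dimmer Bhlhe41 probe set was at -0.02 (adjusted p = 0.869).

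**Figure D4:**
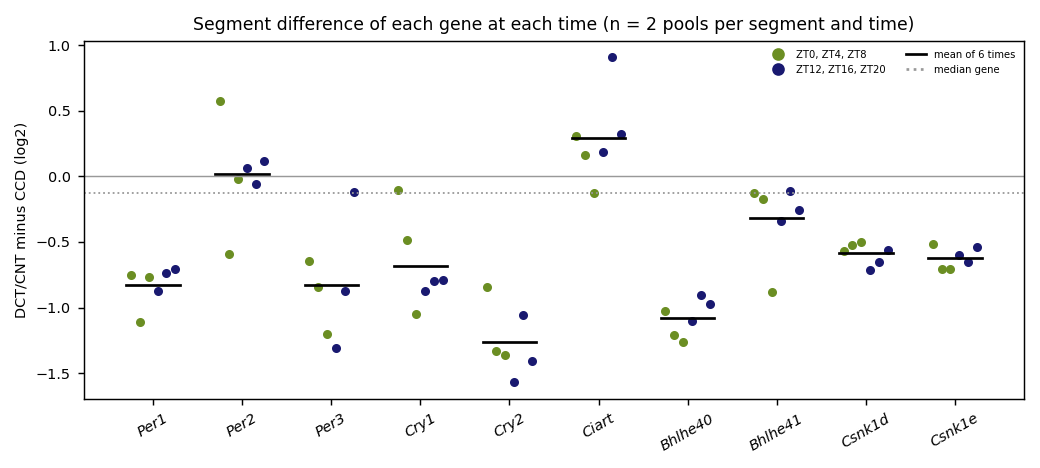
DCT/CNT minus CCD difference of group means in log2 units (vertical axis) for each gene (horizontal axis), with 1 point per zeitgeber time (green for ZT0 to ZT8, dark blue for ZT12 to ZT20), a bar at the mean of 6 times and a dotted line at the median gene (-0.13). All points of Per1, Per3, Cry1, Cry2, Bhlhe40, Bhlhe41, Csnk1d and Csnk1e lie below 0, and those of Per2 spread from -0.59 to 0.57.

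Genes with several probe sets were compared across them in a fit over all 34958 probe sets with 1 symbol, of which 5.08% passed the threshold in DCT/CNT and 1.74% in CCD. Per2 has 3: the second by brightness repeated the rhythm with amplitudes of 1.06 in DCT/CNT and 0.99 in CCD and peaks at ZT 15.8 and ZT 14.7. The third has a mean level of 5.32 and was not called (0.29 and 0.23). All 6 probe sets of Per3 were called in CCD, with amplitudes from 0.70 to 1.65, and 4 of 6 in DCT/CNT, from 0.56 to 1.29. The 2 not called in DCT/CNT had amplitudes of 0.24 and 0.53. Their fitted peaks lay between ZT 12.1 and ZT 13.5 in DCT/CNT and between ZT 9.94 and ZT 12.4 in CCD.

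Among the 10 probe sets of Csnk1d, Csnk1e and Bhlhe41, 1 was called, which is near the share over all probe sets. It belongs to Csnk1d, has a mean level of 8.19 and was called in DCT/CNT, with an amplitude of 0.22, a peak at ZT 3.42 and adjusted p = 0.0156 (limma). In CCD its amplitude was 0.05 (adjusted p = 0.874), and the other 4 probe sets of Csnk1d were not called in either segment. Per1, Cry1, Cry2, Ciart and Bhlhe40 each rest on 1 probe set.

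**Figure D5:**
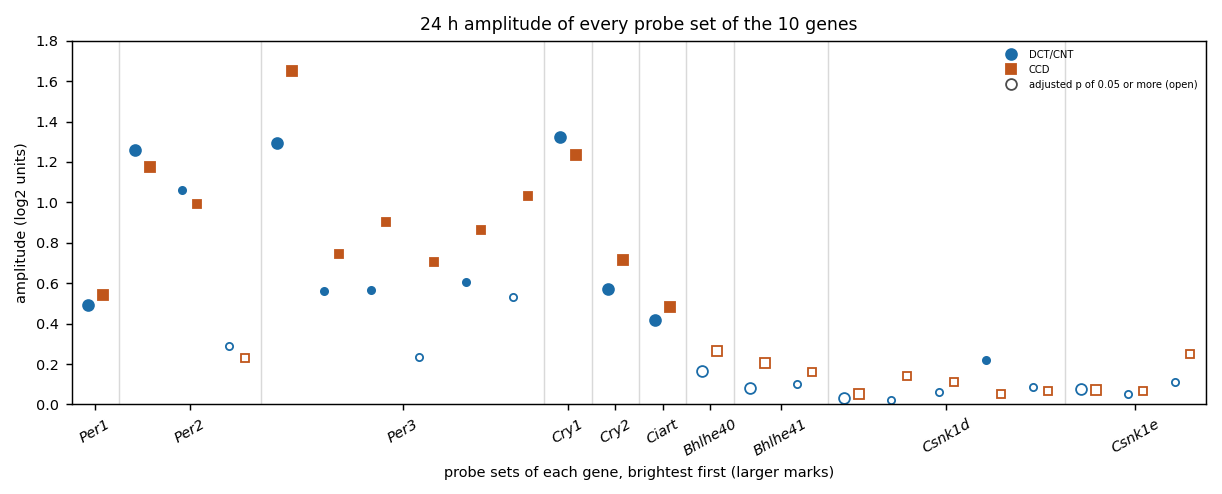
Amplitude of the 24 h rhythm in log2 units (vertical axis) for each of the 24 probe sets, grouped by gene (horizontal axis) with the brightest of each gene first and larger, filled where adjusted p was under 0.05 and open otherwise (DCT/CNT blue circles, CCD orange squares). All 6 Per3 probe sets are filled in CCD, while 9 of 10 probe sets of Bhlhe41, Csnk1d and Csnk1e are open in both segments.

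The partners of the repressors in the loop peaked at several times of day, some of them near peaks of the repressors. Of 8 measured activators and nuclear receptors, 6 were called in DCT/CNT and 5 in CCD. Arntl, Clock and Npas2, the activators, had amplitudes of 1.71, 0.55 and 1.76 in DCT/CNT and 1.65, 0.50 and 2.17 in CCD, with peaks from ZT 22.6 to ZT 1.89. Nr1d1 and Nr1d2, which encode the REV-ERB repressors of Arntl, had amplitudes of 1.67 and 1.72 in DCT/CNT and 1.87 and 1.57 in CCD. Nr1d1 peaked at ZT 8.31 and ZT 7.77, ahead of all 6 rhythmic genes described above. Nr1d2 peaked at ZT 10.7 and ZT 10.5, close to Per1 (ZT 10.6 and ZT 9.75). Rora, an activator of Arntl, was called in DCT/CNT (0.30, adjusted p = 0.0377) and had an amplitude of 0.14 in CCD (adjusted p = 0.610). Arntl2 and Rorb were not called in either segment (amplitudes 0.09 and 0.29 in DCT/CNT, 0.09 and 0.20 in CCD).

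The PAR bZIP factors Dbp, Tef and Hlf, which activate through D-boxes, and Nfil3, which represses there, were all called in DCT/CNT, and 3 of 4 in CCD. Dbp had an amplitude of 2.39 in DCT/CNT and 2.38 in CCD with peaks at ZT 10.5 and ZT 9.95. Tef had amplitudes of 0.95 and 0.90 and peaks at ZT 13.1 and ZT 12.7. Hlf had amplitudes of 0.76 and 0.51 and missed the threshold in CCD (adjusted p = 0.0663). Nfil3 peaked on the other side of the day, at ZT 22.3 and ZT 22.2, with amplitudes of 1.18 and 1.13.

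Genes known to act on PER and CRY proteins include ubiquitin ligases, phosphatases and other kinases. Of 30 measured genes of 35 listed, 1 was called in DCT/CNT (6.57% of all genes) and 3 in CCD (2.47% of all genes). The median amplitude was 0.10 and 0.09, against 0.13 and 0.10 over all genes. The gene called in both was Usp2, a deubiquitinase, with amplitudes of 0.59 (SE 0.09) in DCT/CNT and 0.67 (SE 0.09) in CCD, peaks at ZT 14.3 and ZT 13.2 and adjusted p of 0.000833 and 0.000324 (limma). Ppp1cb, a phosphatase subunit, and Id2, an inhibitor of helix-loop-helix factors, were called in CCD (0.16 and 0.28).

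Genes with the most similar pattern were ranked by Pearson's r over the 24 arrays, with each segment's mean removed. The arrays are shared, so r is a description and is given with no test. Per1 was most like the kinase gene Pim3 (0.890), Tob2 (0.846) and Sphk2 (0.843), and least like Calr (-0.822). Per2 was most like Akr1c19 (0.925), Mapre2 (0.883) and Nampt (0.881), which encodes an enzyme of NAD synthesis, and least like Acsl5 (-0.909). Per3 was most like Tef (0.927), Tspan4 (0.902) and Coq10b (0.900), and least like Arntl (-0.937).

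Cry1 was most like Ces1d (0.955), Hnrnpm (0.901) and Defb1 (0.889), and least like Nop53 (-0.893). Tef (0.917) and Coq10b (0.858) were also among the 3 genes most like Cry2, with Usp2 (0.865) between them, and Gcsh was the least (-0.914). For Ciart the highest values were lower, at 0.825 for Angel2, 0.781 for Ephx1 and 0.777 for Fam47c, and the lowest was -0.790 for Jpt2. The lists of Per3 and Cry2 thus share Tef and Coq10b.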

How the data were processed

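Expression microarrays of 24 pools were analysed from the deposited table of log2 values, which the authors made with RMA, per the submitters' processing notes, from RNA amplified from 10 ng per the labels' protocols. Whether both segments were normalised together is not given in the sources used here. Of 45101 probe sets, 34958 carried 1 gene symbol in the platform annotation, 932 several and 9211 none, and 34754 matched the RefSeq gene table by gene number. The probe set with the highest mean stood for each of 18194 genes. The 10 genes and the pathway and marker lists were chosen with earlier results of these data known.

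A 24 h cosinor was fitted in R 4.3.3 with limma 3.58.1 to all 24 arrays, with a mean, cosine and sine term per segment and 18 residual degrees of freedom. Segment differences came from the 12 group means with 12 residual degrees of freedom. Tests were moderated F or single-contrast tests, with Benjamini-Hochberg adjustment over all genes and a threshold of 0.05. Standard errors of peak times were obtained by the delta method. The fitting code was run on simulated data with known rhythms, as a check of the code only. Array depth has no count here, and the number of pools limits precision. Deviations of samples with the same pool number correlated at -0.125 to 0.123 across times in DCT/CNT and -0.206 to 0.173 in CCD. Across segments at the same time, the range was -0.0253 to 0.0858. These values cannot decide whether such samples share animals, since noise of dissection and arrays also enters the deviations. Named genes are the 10 genes, all genes of the activator, receptor and PAR bZIP lists, turnover genes called in both segments, and for each gene called in both segments the 3 with the highest and 1 with the lowest r. Ppp1cb and Id2 were named after their values were seen.

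Promoter windows (250 bases before to 50 after the start) came from RefSeq on GRCm38.p6 for 7 of the 10 genes, and 5 motifs were searched on both strands. Protein sequences were not analysed here. Alternatives were other scalings, the mean of probe sets, a level filter, array weights, an intensity trend and segments fitted alone. Others were added 12 h terms, replicate blocks, and leaving out each array or time. Tubule marker means as covariates were chosen after seeing the data. Plots were drawn with matplotlib 3.10.9.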

Additional observations from a re-analysis of the deposited data

How the results depend on the processing

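The number of the 10 genes called was 4 to 6 for the rhythm in each segment, 0 for the rhythm difference and 7 to 10 for the segment difference under all alternatives run. The count of 7 came from the level filter, which left Ciart and Bhlhe41 untested. Per2, Per3, Cry1 and Cry2 kept their rhythm calls in both segments under each alternative. Per1 lost the call under 3 of 12 other settings in each segment, and Ciart under 5 of 11 in DCT/CNT and 4 of 11 in CCD. With pool number within each segment as a replicate block, the rhythm calls were 6 in each segment. A block of time and pool number pairs the pools of the segments, a pairing not given in the sources used here. With it the segment calls were 9. No call was changed by either block. The segment difference of Per2 turned to -0.27 with the mean of probe sets.

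Counts over all genes moved more. For the rhythm, the 1195 genes called in DCT/CNT became 226 with the segment fitted alone, 450 with an F test over group means, 662 with 12 h terms, 748 with array weights, 742 with marker covariates and 565 to 788 without 1 time. The 449 in CCD became 117 with the F test, 167 with 12 h terms, 819 with array weights, 718 with an intensity trend, 132 to 255 without 1 time and 242 to 477 without 1 array. The 2 genes with a rhythm difference became 1 to 6. The segment difference fell to 7703 genes among those above the median level, since fewer were tested. Of the called genes, 60.8% were higher in CCD as deposited, 43.1% with equal medians, 48.9% after quantile normalisation and 49.9% after cyclic loess. With 2 pools per group, dim probe sets such as those of Bhlhe41 limit what small rhythms could be seen.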
